A study of Homo sapiens with 10 samples.

Results

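The genes described here encode the machinery that copies DNA and supplies its building blocks: 37 genes for the replicative helicase and its activators, origin licensing, the sliding clamp and its loader, the polymerases and primase, single-strand binding, Okazaki fragment joining, chromatin assembly behind the fork, and deoxynucleotide synthesis. They were chosen by name, and a probe set was counted as theirs only if its annotation named that gene and no other. All 37 were on the array, with 70 of the 41091 probe sets that name a single gene, out of 19775 genes so represented. A probe set is a group of short probes on the array that reads one transcript or a group of near-identical ones.

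The cells were RWPE-1, an immortalized, non-tumorigenic line of human prostate epithelium, transduced with MSCV retroviruses and selected to give stable clones. Total RNA was read on Affymetrix HG-U133 Plus 2.0 arrays from 3 samples of clones labelled as overexpressing ERG, 4 samples of clones labelled as overexpressing ETV1, and 3 samples of control clones that express BirA, a bacterial biotin ligase; the labels list BirA for every group, so the controls carry it too. ERG and ETV1 are transcription factors of the ETS family. The series text speaks of 3 biological replicates, while the ETV1 group holds 4 arrays, and nothing says whether the samples of a group are separate clones, so p-values here reflect how these arrays vary, which may be technical. The series title also names knockdown experiments in LNCaP and VCaP cancer cells, which are not analysed here.

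A eukaryotic cell licenses its origins before S phase: the origin recognition complex, CDC6 and CDT1 load rings of MCM2 to MCM7 onto DNA. CDC45 and the GINS complex then join the ring to form the active helicase, primase with polymerase alpha starts each strand, and polymerases delta and epsilon extend it while held by PCNA, which replication factor C loads. Most of these genes are transcribed in late G1 and S phase through E2F factors, and in an epithelial culture their mRNAs are widely read as a mark of cycling cells. In a bulk sample, fewer cells in S phase and less RNA per cell cannot be told apart.

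The sample labels were first set against the overexpressed genes. An ETV1 probe set reached 1302, 1689, 1443 and 844.5 intensity units on the ETV1 arrays, against 72.5, 70.3 and 122 on the control arrays, so the groups did not overlap. The ERG probe sets did not settle the ERG label: one gave 25.7, 33.9 and 49.95 on arrays labelled ERG, against 11.2, 10.6 and 5.32 on the control arrays, while the brightest gave 9.80, 7.70 and 10.8 on arrays labelled ERG, against 191, 183 and 185 on the control arrays. Those samples are therefore called arrays labelled ERG throughout. They also stood apart technically: their median intensity was 48.4 to 52.5, against 70.9 to 75.5 on ETV1 arrays and 71.3 to 73.4 on control arrays, and the ratio of 3′ to 5′ signal for ACTB was 2.94 ± 0.171 on arrays labelled ERG (SD, n = 3), 1.26 ± 0.0288 on ETV1 arrays (SD, n = 4) and 1.38 ± 0.0243 on control arrays (SD, n = 3). ETV1 and control arrays did not overlap in that ratio, at 1.24 to 1.30 and 1.35 to 1.40. Nor did they in the GAPDH ratio, at 0.994 to 1.05 and 0.893 to 0.931. The 18S ribosomal 5′ signal was 276 to 874 on ETV1 arrays and 79.4 to 159 on control arrays. The part of these differences in the results was not tested. The basal epithelial keratin KRT5 was bright on all arrays, at 11100 to 11407 on arrays labelled ERG, 5477 to 6479 on ETV1 arrays and 5085 to 5436 on control arrays, and its partner KRT14 was likewise bright. Of the markers of other cell types, 2 of 5 endothelial (PECAM1 and KDR), 1 of 4 leukocyte (CD3E), 2 of 6 fibroblast (COL1A1 and DCN) and 1 of 3 neuroendocrine (CHGA) were bright enough to be tested, while CDH5, LYZ, CD14 and PTPRC were not.

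The upstream windows of 5 members are shown because they hold sites that replication promoters are known for and belong to genes that the results turn on: RRM2 and GINS2, with the largest falls in ETV1 cells, MCM7 and MCM6 of the helicase ring, and TYMS, which was not called. Each is the 250 bases before the annotated start from RefSeq (GRCh38.p14), written on the gene's own strand, 5′ to 3′. Capitals mark CCAAT boxes and E2F-type octamers (TTTCCCGC, TTTCGCGC, TTTGGCGC or TTTGCCGC) on either strand, so that GCGGGAAA is TTTCCCGC read on the opposite strand. The windows are RRM2 at chr2:10122489-10122738 on the plus strand (1 of 2 annotated starts), GINS2 at chr16:85688955-85689204 on the minus strand, MCM7 at chr7:100101398-100101647 on the minus strand (1 of 3 annotated starts), MCM6 at chr2:135876444-135876693 on the minus strand and TYMS at chr18:657403-657652 on the plus strand.
RRM2: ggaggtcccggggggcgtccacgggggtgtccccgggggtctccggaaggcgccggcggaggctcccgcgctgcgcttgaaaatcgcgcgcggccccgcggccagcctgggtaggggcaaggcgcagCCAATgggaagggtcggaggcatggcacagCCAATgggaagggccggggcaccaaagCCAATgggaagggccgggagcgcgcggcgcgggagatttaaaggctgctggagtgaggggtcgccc
GINS2: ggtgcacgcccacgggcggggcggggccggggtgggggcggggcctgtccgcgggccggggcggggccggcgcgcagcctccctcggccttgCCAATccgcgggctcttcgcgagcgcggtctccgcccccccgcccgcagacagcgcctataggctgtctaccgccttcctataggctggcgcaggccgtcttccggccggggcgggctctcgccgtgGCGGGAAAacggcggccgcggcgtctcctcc
MCM7: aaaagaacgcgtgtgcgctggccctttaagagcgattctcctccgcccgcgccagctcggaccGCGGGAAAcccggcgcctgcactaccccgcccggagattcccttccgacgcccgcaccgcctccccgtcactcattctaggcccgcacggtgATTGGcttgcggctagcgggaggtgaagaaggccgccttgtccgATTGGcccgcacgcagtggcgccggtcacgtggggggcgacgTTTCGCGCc
MCM6: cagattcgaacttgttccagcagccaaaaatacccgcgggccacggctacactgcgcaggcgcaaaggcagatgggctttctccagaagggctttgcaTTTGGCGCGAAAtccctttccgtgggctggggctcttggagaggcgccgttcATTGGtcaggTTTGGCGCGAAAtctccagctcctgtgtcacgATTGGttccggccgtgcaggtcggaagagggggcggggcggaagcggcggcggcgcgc
TYMS: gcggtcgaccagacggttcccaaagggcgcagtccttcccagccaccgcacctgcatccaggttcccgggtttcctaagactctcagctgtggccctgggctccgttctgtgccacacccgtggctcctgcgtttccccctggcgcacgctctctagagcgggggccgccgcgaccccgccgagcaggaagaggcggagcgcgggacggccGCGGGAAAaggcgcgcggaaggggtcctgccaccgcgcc

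RRM2 carries 3 CCAAT boxes at 66, 93 and 123 bases before its start and none of the 4 octamers. MCM6 holds 2 stretches in which TTTGGCGC and, on the other strand, TTTCGCGC overlap, while MCM7 has TTTCGCGC close to its start and TTTCCCGC farther up. Of the 32 members with an upstream window, 12 held an E2F-type octamer, against 3.4% of 27305 genes. A CCAAT box on either strand stood in 19 of the 32, against 37% of genes. The ETS-type letters CCGGAAG, searched on both strands because ERG and ETV1 are ETS factors, stood in 5 members (GINS2, GINS3, POLA1, RFC4 and RRM2), against 10.2% of genes. TTTGAA, the letters of the CHR element of cell cycle genes, stood only in RRM1 among the members, against 16.1% of genes. A match is a description of letters and does not show that a factor binds there.

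In ETV1 cells the replication genes were lower almost throughout. Of the 37 members, 30 fell, none was higher and 7 did not pass the test, when 15.9% of the 14069 tested genes fell and 9.32% rose, 25.3% in all (limma across all tested genes, Benjamini-Hochberg adjusted p under 0.05). On the log2 scale the median over the members was -0.76, beside -0.06 over all tested genes. Every ETV1 array lay below every control array for 29 of the 37 members, as it did for 20.8% of all tested genes. By sub-complex, all 6 MCM genes, all 4 licensing genes, both RPA subunits, both chromatin assembly genes and both Okazaki genes fell, along with 4 of 5 clamp and loader genes, 4 of 6 helicase activators, 3 of 4 nucleotide genes and 3 of 6 polymerase and primase genes.

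**Figure D1:**
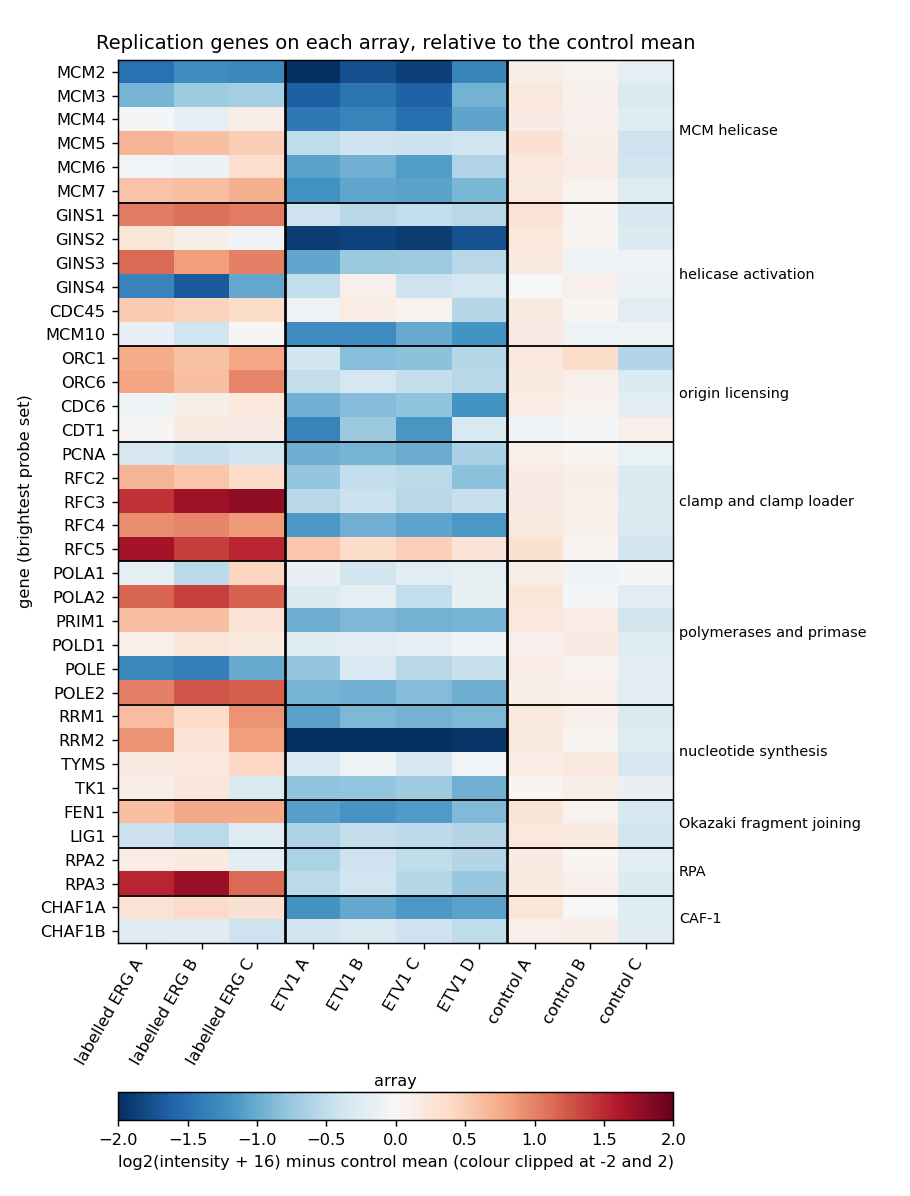
Each row is one of the 37 genes, grouped by sub-complex, and each column an array; colour gives log2(intensity + 16) minus the control mean, clipped at -2 and 2. The ETV1 columns are blue for most rows, control C is the lowest control array for 34 genes, and the columns labelled ERG mix red and blue.

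On the arrays labelled ERG the members were mixed. Here 19 members were higher, 6 were lower and 12 were not called, beside 48.0% of tested genes higher and 32.3% lower, so the share of members called lay under the 80.4% of all genes called in either direction. The median difference was 0.32 over the members and 0.30 over all tested genes (log2). Scaling turned this count: after quantile normalization 11 members were higher and 13 lower, and after division of each array by its median 29 were higher and 3 lower. The all-gene median moved to 0.06 under the first and to 0.81 under the second. The calls kept under every alternative that tested the gene were the rises of GINS1, GINS3, ORC1, ORC6, RFC3, RFC4, POLA2, POLE2 and RPA3 (9 of 19) and the falls of MCM2, GINS4 and POLE (3 of 6). Of these, POLA2 was bright enough to be tested only through the arrays labelled ERG. With quantile normalization PRIM1 and CHAF1A turned to values below 0 on arrays labelled ERG against control, and with median centring PCNA and LIG1 turned to values above 0.

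**Figure D2:**
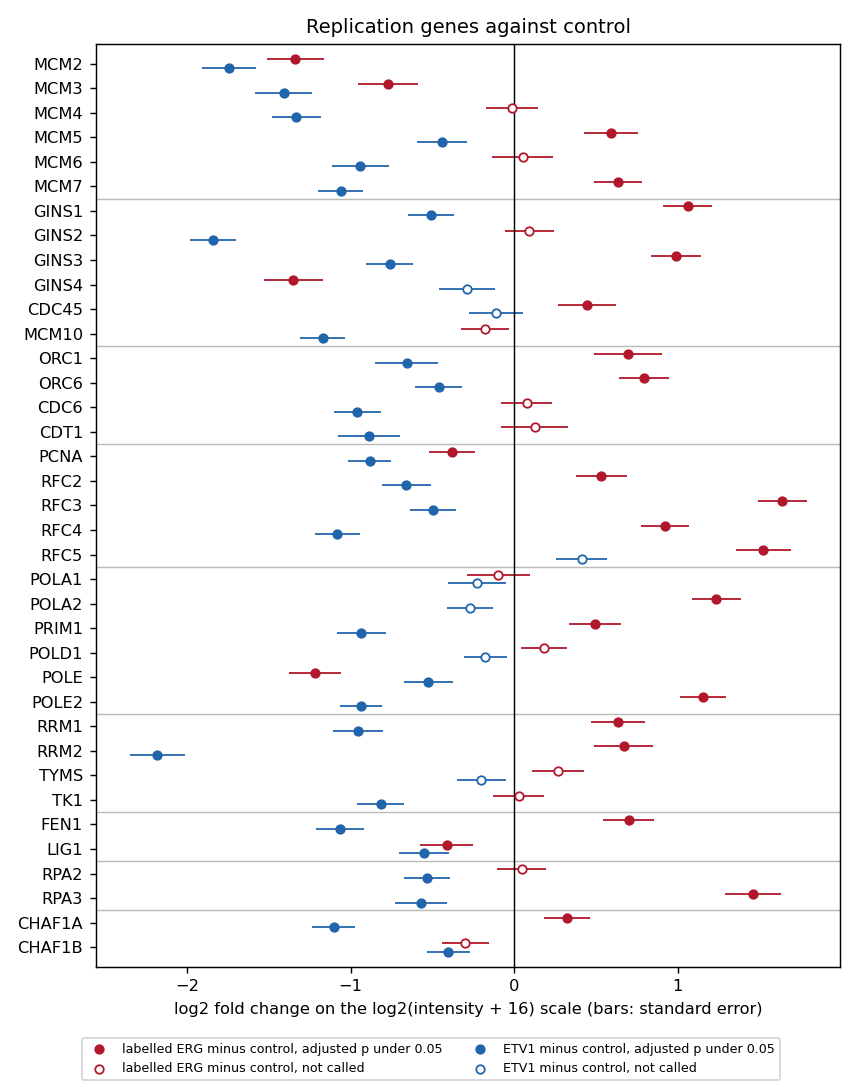
Log2 fold change of each member against control, with its standard error, for arrays labelled ERG (red) and ETV1 arrays (blue); filled points have an adjusted p under 0.05. Blue points lie left of 0 for 36 members, RFC5 being the exception, while red points run from -1.35 (GINS4) to 1.64 (RFC3).

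The MCM genes encode the ring-shaped motor that unwinds DNA, and all 6 fell in ETV1 cells (median -1.20, log2). MCM2, the ring subunit with the largest change, gave 1237, 1473 and 1418 on arrays labelled ERG, 832, 1025, 945 and 1404 on ETV1 arrays, and 3810, 3684 and 3037 on the control arrays. The ETV1 arrays and the arrays labelled ERG lay wholly below the controls and overlapped each other, and ETV1 array D was the highest of its group. MCM2 averaged 1051 ± 248 on ETV1 arrays (SD, n = 4) and 3510 ± 415 on control arrays (SD, n = 3), a log2 fold change of -1.74 ± 0.16 (SE, limma adjusted p = 1.22e-06), and it fell on the arrays labelled ERG by 1.34 ± 0.18 on the log2 scale (SE, limma adjusted p = 2.35e-06). MCM3 also fell in both, at 1178 to 1398 on arrays labelled ERG, 719 to 1162 on ETV1 arrays and 1843 to 2604 on control arrays.

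MCM4 read 2587, 2340 and 2884 on arrays labelled ERG, 960, 1027, 913 and 1252 on ETV1 arrays, and 2929, 2769 and 2213 on the control arrays. The ETV1 arrays stood below the other 6, which overlapped each other. Its fall in ETV1 cells was 1.33 ± 0.15 on the log2 scale (SE, limma adjusted p = 6.47e-06), and the arrays labelled ERG differed from control by -0.01 ± 0.16 (SE, limma adjusted p = 0.941). Of its 4 tested probe sets, 2 dimmer ones were lower than control on arrays labelled ERG (-0.49 and -1.76, log2) and none was higher, and MCM4 was called lower there with the mean of probe sets (-0.84) or quantile normalization (-0.61) and higher with median centring (0.50). MCM7 averaged 841 ± 74.3 on ETV1 arrays and 1779 ± 278 on control arrays, and MCM6 averaged 1162 ± 204 on ETV1 arrays and 2256 ± 464 on control arrays (SD, n = 4 and 3). MCM5 was the least changed of the ring, at 542 to 589 on ETV1 arrays and 583 to 966 on control arrays, and the ranges overlapped through control C. Its limma adjusted p was 0.0446, and the call was kept in 10 of 23 alternative settings. It was lost without control A (-0.29 on the log2 scale), control B (-0.38), ETV1 A (-0.41), ETV1 B (-0.45), ETV1 C (-0.44), ETV1 D (-0.45) or ERG A (-0.44). On arrays labelled ERG, MCM5 and MCM7 were higher than control by 0.59 and 0.64 (log2), MCM2 and MCM3 were lower, and MCM4 and MCM6 were not called. The other probe sets of MCM5 and MCM7 were not called there, at -0.31 and -0.30. Neither gene passed there after quantile normalization (0.12 and 0.03) or with the mean of probe sets (0.14 and 0.17).

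The helicase activators are CDC45 and the 4 GINS subunits, which complete the moving helicase, and MCM10, which is needed to start it. GINS2 gave 1284, 1178 and 1030 on arrays labelled ERG, 282, 291, 281 and 313 on ETV1 arrays, and 1264, 1136 and 896 on the control arrays. The 4 ETV1 arrays were close together and far below the other 6, which overlapped. Their mean of 292 ± 14.7 (SD, n = 4) was 0.266 times the control mean of 1098 ± 187 (SD, n = 3), with a log2 fold change of -1.84 ± 0.14 (SE, limma adjusted p = 1.25e-07). A dimmer GINS2 probe set read 64.7 to 86.6 on arrays labelled ERG, at most 5.99 on ETV1 arrays and at most 6.28 on control arrays, near the bottom of the scale.

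GINS1 and GINS3 fell in ETV1 cells by 0.51 and 0.76 on the log2 scale, and MCM10 by 1.17. GINS1 did not pass without control A or without control B, at -0.37 and -0.49. GINS4 stood apart from its partners, with 33.6, 23.2 and 45.7 on arrays labelled ERG, 73.8, 119, 78.1 and 82.7 on the ETV1 arrays and 111, 119 and 100 on the control arrays. It was dim in every group, lowest on arrays labelled ERG, where it fell by 1.35 ± 0.18 on the log2 scale against control (SE, limma adjusted p = 3.12e-06) and by 1.06 against ETV1 arrays, while ETV1 and control arrays overlapped (limma adjusted p = 0.24). Another GINS4 probe set, too dim to be tested, went the other way. It read 39.3 to 78.5 on arrays labelled ERG, 9.27 to 20.4 on ETV1 arrays and 8.32 to 17.65 on control arrays. The remaining GINS4 probe sets were also lowest on arrays labelled ERG. CDC45 was not called in ETV1 cells either, with 217 ± 47.8 on ETV1 arrays and 233 ± 35.9 on control arrays (SD, n = 4 and 3); on arrays labelled ERG it was higher by 0.44 (log2), a call lost without control C (0.33) or ERG A (0.40).

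Licensing is done by the origin recognition complex, whose subunits ORC1 and ORC6 are members, with the loading factors CDC6 and CDT1. All 4 fell in ETV1 cells. CDC6, the loader with the largest change there, read 495, 585 and 622 on arrays labelled ERG, 267, 285, 299 and 224 on ETV1 arrays, and 596, 560 and 459 on the control arrays. The ETV1 arrays were below all others, and the other groups overlapped. CDC6 fell in ETV1 cells by 0.96 ± 0.14 on the log2 scale (SE, limma adjusted p = 0.000128).

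ORC6 gave 1600, 1407 and 1826 on arrays labelled ERG, 646, 727, 657 and 623 on ETV1 arrays, and 1040, 988 and 753 on the control arrays, so the 3 groups were separate, with the arrays labelled ERG on top. Its log2 fold change was 0.79 ± 0.15 on arrays labelled ERG (SE, limma adjusted p = 0.000156) and -0.46 ± 0.14 in ETV1 cells (SE, limma adjusted p = 0.0256). The second did not pass without control A (-0.37), control B (-0.41), ETV1 A (-0.45), ETV1 C (-0.46) or ETV1 D (-0.43). ORC1, the ATPase subunit of the recognition complex, was dim, at 156 to 179 on arrays labelled ERG, 47.5 to 72.2 on ETV1 arrays and 60.7 to 132 on control arrays, where control C reached into the ETV1 range; its fall of 0.66 (log2) did not pass without control A (-0.55), control B (-0.47), ETV1 B (-0.59) or ETV1 C (-0.60).

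CDT1 showed a disagreement between its probe sets. Its brightest read 851, 952 and 940 on arrays labelled ERG, 321, 494, 364 and 674 on ETV1 arrays, and 795, 822 and 894 on the control arrays. The other read 354, 420 and 364 on arrays labelled ERG, 571, 570, 585 and 744 on ETV1 arrays, and 1097, 1205 and 894 on the control arrays. Both put the ETV1 arrays below the controls, with log2 fold changes of -0.89 and -0.77, but they ranked the arrays labelled ERG at opposite ends: 1.01 above the ETV1 arrays by the first, and lower than them by the second, at -0.67. Without any one of the arrays labelled ERG the second became the brighter of the pair and the value for CDT1, at -0.63 without ERG A, -0.75 without ERG B and -0.65 without ERG C. Against control the arrays labelled ERG differed by 0.13 by the first (limma adjusted p = 0.579), and CDT1 was called lower at -1.40 without ERG A, -1.52 without ERG B and -1.42 without ERG C.

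PCNA is the sliding clamp, and RFC2 to RFC5 are the small subunits of the pentamer that opens and loads it. PCNA read 4336 to 4689 on arrays labelled ERG, 2953 to 3751 on ETV1 arrays and 5367 to 6290 on control arrays, with no overlap between any of the 3 groups. It fell in ETV1 cells by 0.88 ± 0.13 on the log2 scale (SE, limma adjusted p = 0.00011), and its smaller fall of 0.38 on arrays labelled ERG did not pass without control A (-0.33) or control B (-0.36). RFC4 gave 3765, 3910 and 3580 on arrays labelled ERG, 878, 1007, 937 and 878 on ETV1 arrays, and 2266, 2116 and 1605 on the control arrays. The 3 groups again did not touch, and the ETV1 mean of 925 ± 61.6 (SD, n = 4) was 0.464 times the control mean of 1996 ± 346 (SD, n = 3; log2 fold change -1.08 ± 0.14, SE, limma adjusted p = 2.69e-05). On arrays labelled ERG RFC4 was higher than control by 0.92 ± 0.15 (SE, log2, limma adjusted p = 2.24e-05). RFC2 took the same order, with log2 fold changes of 0.53 on arrays labelled ERG and -0.66 in ETV1 cells.

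RFC3 read 1622, 1940 and 2038 on arrays labelled ERG, 396, 432, 394 and 423 on ETV1 arrays, and 659, 632 and 483 on the control arrays. The arrays labelled ERG were far above both other groups, at 3.16 times the control mean (log2 fold change 1.64 ± 0.15, SE, limma adjusted p = 3.24e-08). A second probe set of RFC3 was higher by 0.83 on these arrays and another, dim one fell by 0.89, reading 65.3 to 70.6 on arrays labelled ERG against 123 to 150 on control arrays. In ETV1 cells RFC3 fell by 0.49 (log2), but did not pass without control A (-0.41) or without control B (-0.44).

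RFC5 was the one member with a positive value in ETV1 cells, and its probe sets did not agree. The brightest gave 1035, 849 and 941 on arrays labelled ERG, 470, 414, 445 and 380 on ETV1 arrays, and 394, 329 and 243 on the control arrays. ETV1 and control arrays overlapped, with a log2 difference of 0.41 ± 0.15 (SE, limma adjusted p = 0.0614), and it passed as higher without control A (0.56), ETV1 D (0.47) or ERG C (0.41). The other probe sets fell in ETV1 cells by 0.81 and 0.90 on the log2 scale, one of them at 287 to 339 on ETV1 arrays against 432 to 636 on control arrays. For RFC5 the direction in ETV1 cells therefore differs by probe set.

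**Figure D3:**
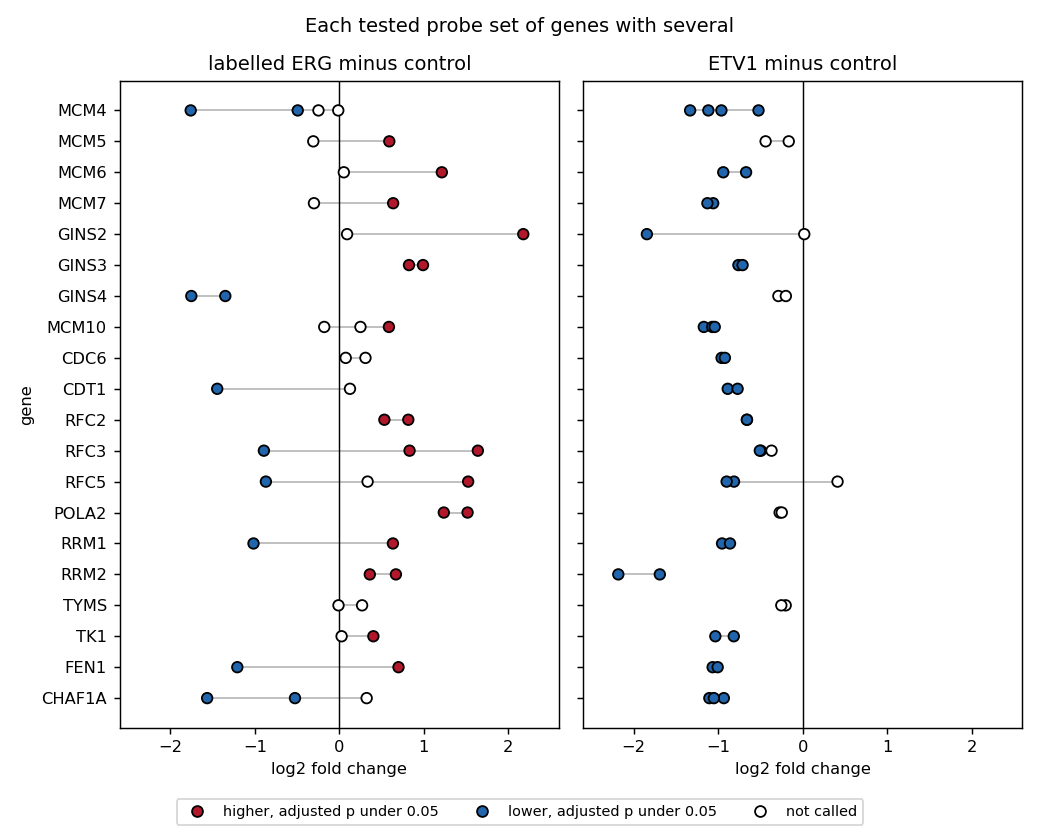
Log2 fold change of every tested probe set of the 20 members with more than one, for arrays labelled ERG (left) and ETV1 arrays (right) against control; red points are called higher, blue lower, white not called. On the right no member has called points on both sides of 0, while on the left FEN1, RFC3, RFC5 and RRM1 do.

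Across the 20 members with more than one tested probe set, 13 had all of them lower in ETV1 cells and none had probe sets called in opposite directions; over all such genes the shares were 4.46% and 0.690%. GINS2, RFC3 and RFC5 had only some probe sets called, and MCM5, GINS4, POLA2 and TYMS had none when each probe set was tested on its own. On arrays labelled ERG against control, 4 of the 20 had probe sets in opposite directions, beside 37.6% of all such genes, 4 had all probe sets higher and 1 had all lower, beside 17.3% and 9.83%. POLA2 was among those with all higher, and its probe sets, like a dim one of GINS2, were tested only through the arrays labelled ERG. Against ETV1 arrays the count in opposite directions was also 4 (MCM4, CDT1, RFC3 and CHAF1A), beside 38.5%.

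Primase and the polymerases had the smallest median change of the sub-complexes in ETV1 cells (-0.40, log2). POLE2, a non-catalytic subunit of the leading-strand polymerase epsilon, gave 1262, 1496 and 1432 on arrays labelled ERG, 315, 308, 332 and 305 on ETV1 arrays, and 672, 661 and 529 on the control arrays. The groups were separate, with a log2 fold change of 1.15 ± 0.14 on arrays labelled ERG (SE, limma adjusted p = 8.94e-07) and -0.94 ± 0.13 in ETV1 cells (SE, limma adjusted p = 6.46e-05). PRIM1, the catalytic primase subunit, likewise fell by 0.94 in ETV1 cells, to 587 ± 11.8 (SD, n = 4), against 1155 ± 241 on control arrays (SD, n = 3). POLE, the catalytic subunit of polymerase epsilon, fell in both: it read 190 to 248 on arrays labelled ERG, 293 to 412 on ETV1 arrays and 442 to 570 on control arrays, and in ETV1 cells its fall of 0.52 (log2) did not pass without control A (-0.45), control B (-0.49) or ETV1 A (-0.44).

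The polymerase alpha subunits and POLD1 did not pass in ETV1 cells. POLA2, the accessory subunit of polymerase alpha, gave 186, 215 and 188 on arrays labelled ERG, 58.4, 63.96, 48.3 and 64.9 on ETV1 arrays, and 90.2, 72.8 and 61.6 on the control arrays. The arrays labelled ERG were above all others (log2 fold change against control 1.24 ± 0.15, SE, limma adjusted p = 1.03e-06), and ETV1 and control arrays overlapped through control C. Outside the arrays labelled ERG, POLA2 exceeded the array's median only on controls A and B. It was thus bright enough to be tested only through the arrays labelled ERG, so its rise there is not independent of that filter. POLA1, the catalytic subunit of polymerase alpha, lay at 125 to 261 on arrays labelled ERG, 142 to 169 on ETV1 arrays and 178 to 205 on control arrays. It was the only member called in none of the 3 comparisons, though without ERG C it was lower on arrays labelled ERG (-0.36). POLD1, the catalytic subunit of polymerase delta, averaged 209 ± 11.3 on ETV1 arrays and 240 ± 36.7 on control arrays (SD, n = 4 and 3).

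Among the genes of nucleotide supply, ribonucleotide reductase changed most. This enzyme makes deoxynucleotides from ribonucleotides, with RRM1 as the large subunit and RRM2 as the small one, made mainly in S phase. RRM2 read 3114, 2015 and 3008 on arrays labelled ERG, 353, 304, 353 and 421 on ETV1 arrays, and 1922, 1736 and 1393 on the control arrays. No ETV1 array came near the others, and the arrays labelled ERG were all above the controls. The ETV1 mean of 358 ± 48.4 (SD, n = 4) was 0.212 times the control mean of 1684 ± 269 (SD, n = 3), the largest fall of any member, with a log2 fold change of -2.18 ± 0.17 (SE, limma adjusted p = 1.58e-07). Its second probe set fell by 1.69. On arrays labelled ERG the rise was 0.67 ± 0.18 (SE, log2, limma adjusted p = 0.00284), and the second probe set rose by 0.36. Without ERG A or without ERG C that second probe set became the brightest and the value for RRM2. It then did not pass, at 0.33 each.

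RRM1 gave 3363, 2829 and 4099 on arrays labelled ERG, 1031, 1158, 1122 and 1165 on ETV1 arrays, and 2497, 2339 and 1775 on the control arrays. All 3 groups were separate. A second RRM1 probe set read 486, 513 and 654 on arrays labelled ERG, 483, 730, 618 and 636 on ETV1 arrays, and 1187, 1205 and 986 on the control arrays. The ETV1 falls were alike, at -0.95 and -0.86 (log2), while the values on arrays labelled ERG against control were opposite, at 0.63 and -1.02.

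TK1, the salvage kinase that phosphorylates thymidine, read 537 to 641 on ETV1 arrays and 951 to 1148 on control arrays, a fall of 0.82 on the log2 scale (SE 0.14, limma adjusted p = 0.000574). TYMS, thymidylate synthase, which makes thymidylate from deoxyuridylate, did not follow. It gave 2663, 2736 and 3131 on arrays labelled ERG, 1898, 2187, 1850 and 2264 on ETV1 arrays, and 2602, 2689 and 1857 on the control arrays. Controls A and B were above the ETV1 arrays and control C was among them, so the log2 difference was -0.20 ± 0.15 (SE, limma adjusted p = 0.361), and without control C it passed, at -0.37. Of the genes whose windows are printed above, TYMS carries an E2F-type octamer and was not called, and RRM2 carries none and changed most. Of the 32 members with an upstream window, 12 held such an octamer, and 9 of these fell in ETV1 cells. The count of 30 falls covers all 37 members, those without a window included, so its base is not the same. Whether the sites in the windows bear on the changes was not tested.

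**Figure D4:**
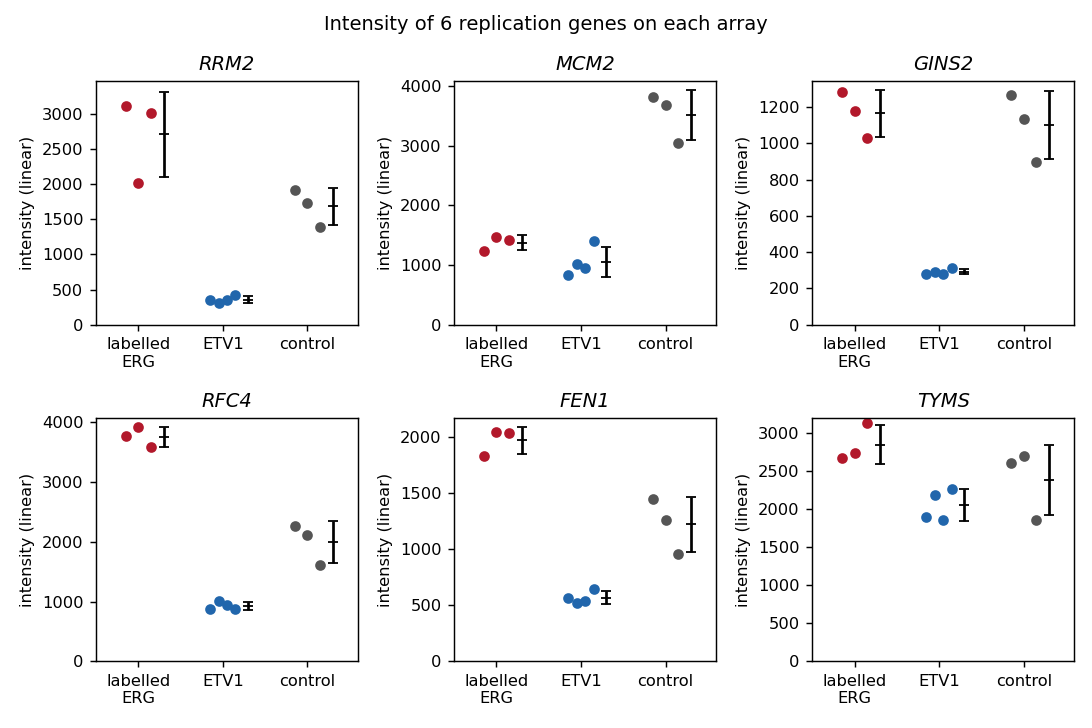
Intensity (linear scale from 0) of RRM2, MCM2, GINS2, RFC4, FEN1 and TYMS on every array labelled ERG, ETV1 and control; the bar beside each group is its mean with the SD. For the first 5 genes every ETV1 point except ETV1 D of MCM2, at 1404 against 1237 to 1473 on arrays labelled ERG, is below all points of the other groups, and for TYMS the ETV1 and control points overlap.

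FEN1, the nuclease that trims the flaps of Okazaki fragments, gave 1830, 2046 and 2042 on arrays labelled ERG, 563, 524, 543 and 649 on ETV1 arrays, and 1448, 1264 and 959 on the control arrays. The 3 groups did not overlap, and the fall in ETV1 cells was 1.07 ± 0.15 on the log2 scale (SE, limma adjusted p = 6.17e-05). Its second probe set fell by 1.01 in ETV1 cells but read 369 to 517 on arrays labelled ERG against 936 to 1210 on control arrays, a fall of 1.21 where the first rose by 0.70. LIG1, the ligase that seals the fragments, was lower in both, at 156 to 194 on arrays labelled ERG, 147 to 164 on ETV1 arrays and 174 to 274 on control arrays; in ETV1 cells its fall of 0.55 (log2) did not pass without control A (-0.45) or control B (-0.46), nor did its fall of 0.41 on arrays labelled ERG without control A (-0.31), control B (-0.32), ERG A (-0.40) or ERG B (-0.35).

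RPA3, the smallest subunit of the protein that coats single-stranded DNA, read 6171, 7146 and 4717 on arrays labelled ERG, 1465, 1618, 1441 and 1256 on ETV1 arrays, and 2424, 2291 and 1772 on the control arrays. The arrays labelled ERG were at 2.78 times the control mean (log2 fold change 1.46 ± 0.17, SE, limma adjusted p = 6.65e-07), and the groups were separate. RPA3 and RPA2 fell in ETV1 cells by 0.57 and 0.53 (log2); neither passed without control A (-0.48 and -0.45) or control B (-0.52 and -0.51).

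CHAF1A and CHAF1B encode the large and middle subunits of CAF-1, which deposits histones on new DNA. CHAF1A gave 1099, 1167 and 1103 on arrays labelled ERG, 383, 434, 394 and 420 on ETV1 arrays, and 1056, 899 and 753 on the control arrays. The ETV1 arrays were well below (log2 fold change -1.10 ± 0.13, SE, limma adjusted p = 1.62e-05), and the arrays labelled ERG lay just above the highest control (0.32 ± 0.14, SE, limma adjusted p = 0.0472). That last call was kept in 6 of 22 alternative settings and was lost on leaving out any 1 array other than control A (0.20 to 0.34), and the other CHAF1A probe sets were lower on arrays labelled ERG, one of them at 185 to 234 against 505 to 719 on control arrays. CHAF1B fell in ETV1 cells by 0.40 (limma adjusted p = 0.0349) and did not pass without control A (-0.35), control B (-0.33), ETV1 A (-0.41), ETV1 C (-0.40) or ETV1 D (-0.37).

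The direct comparison of the 2 factors' arrays separated most members. Against ETV1 arrays, 32 of the 37 were higher on arrays labelled ERG, GINS4 and POLE were lower, and POLA1, LIG1 and CHAF1B were not called, beside 50.7% of tested genes higher and 33.4% lower, 84.1% in all. The members' median log2 difference was 1.11 and that of all genes 0.36. RRM2 had the largest difference, 2.85 ± 0.17 (SE, limma adjusted p = 1.5e-10), ahead of RFC3, POLE2, RPA3 and RFC4, which differed by 2.00 to 2.13. The rise of MCM2, 0.41, did not pass without ETV1 A (0.30), ETV1 B (0.40), ETV1 C (0.36), ERG B (0.36) or ERG C (0.38), nor did that of POLD1, 0.36, without ERG B (0.33). The 2 earlier comparisons share the control arrays: 16 members were lower in ETV1 cells and higher on arrays labelled ERG than control, a pattern found in 9.57% of all tested genes. Another 5 were lower than control in both (MCM2, MCM3, PCNA, POLE and LIG1), a pattern of 2.42% of genes.

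The arrays of a group were not alike. The median of the members' differences from the control mean was 0.29, 0.27 and 0.37 on arrays labelled ERG, -0.80, -0.74, -0.72 and -0.60 on ETV1 arrays, and 0.18, 0.08 and -0.26 on the control arrays (log2). Control A was the highest control array for 30 members and control C the lowest for 34, and over all tested genes control C also lay 0.18 below the control mean. ETV1 array D was the highest of its group for 16 members, including all 6 MCM genes, and the lowest for 11, including RFC4, POLE2 and TK1. That array also differed in 18S ribosomal 5′ signal, at 276 against 680 to 874 on the other ETV1 arrays and 79.4 to 159 on control arrays. In the median of 26 mitosis genes it stood at -0.56, against -0.13 to -0.03 on the other ETV1 arrays. The part of these differences in the results was not tested. Without control A or without control B 20 members fell in ETV1 cells, and without control C 31 did. The falls over all tested genes moved as well, from 2242 of 14069 with every array. They were 1175 of 14015 without control A, 1287 of 14001 without control B and 3146 of 13978 without control C.

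**Figure D5:**
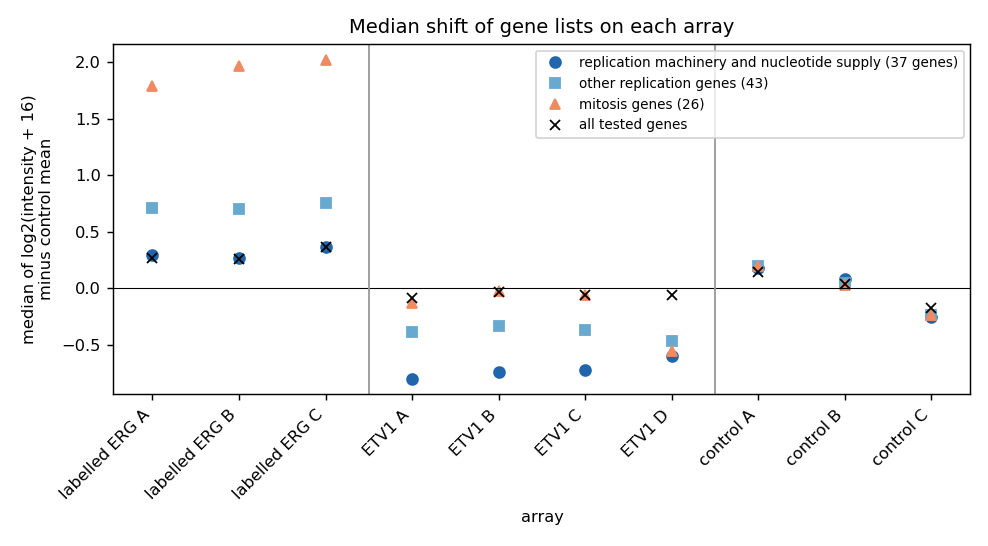
Median over genes of log2(intensity + 16) minus the control mean on each array, for the 37 members and the other lists plotted with them. The members stand at -0.80 to -0.60 on the ETV1 arrays, below the 26 mitosis genes at -0.56 to -0.03, while on the arrays labelled ERG the mitosis genes stand at 1.79 to 2.02, above the members at 0.27 to 0.37.

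Of 43 further genes for origins, forks, histone supply and nucleotides, 20 were lower and 2 higher in ETV1 cells, beside 15.9% and 9.32% of tested genes. The median over the 43 was -0.39 (log2). The largest falls were DONSON (1.27), which helps assemble the helicase, GMNN (1.06), the inhibitor of CDT1, MCMBP (1.04), a partner of the MCM proteins, TOPBP1 (0.90), which acts at helicase activation and in checkpoint signalling, and DNA2 (0.87), a nuclease of long flaps, all in log2 units with limma adjusted p between 5.8e-06 and 0.000234. Those that rose were POLD4 (0.95), the smallest subunit of polymerase delta, and RRM2B (0.46), the p53-inducible reductase subunit, whose array ranges overlapped. CDC7, the kinase that fires origins, fell by 0.83, and its activator DBF4 was not called, at 301 ± 38.4 on ETV1 arrays and 266 ± 53.2 on control arrays (SD, n = 4 and 3).

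On arrays labelled ERG 32 of these 43 genes were higher and 5 lower than control, beside 48.0% and 32.3% of tested genes. Of the 32, DSCC1 and CLSPN were bright enough to be tested only through the arrays labelled ERG. The median over the 43 was 0.73. DBF4 was the largest, at 1595 ± 207 on arrays labelled ERG against 266 ± 53.2 on control arrays (SD, n = 3 each; log2 fold change 2.52 ± 0.17, SE, limma adjusted p = 7.6e-10), then MCM9 (-1.91), a helicase of recombination repair, DSCC1 (1.72), part of an alternative clamp loader, and POLD4, at 744 ± 218 on arrays labelled ERG against 246 ± 25.5 on control arrays (SD, n = 3 each). Of 26 mitosis genes, 24 were higher and 1 lower on arrays labelled ERG, beside the same shares of tested genes, with a median of 1.91. In ETV1 cells 1 was higher and 7 lower, beside 9.32% and 15.9% of tested genes, with a median of -0.19. The summed intensity of 7 epithelial markers was 41927 to 42317 on arrays labelled ERG, 28154 to 29294 on ETV1 arrays and 27019 to 31062 on control arrays. That of 6 fibroblast markers was 246 to 329 on arrays labelled ERG, 1123 to 1176 on ETV1 arrays and 974 to 1247 on control arrays, so the ETV1 range fell inside the control range for both lists. Single epithelial markers did differ in ETV1 cells. EPCAM and KRT18 were called lower, by 0.89 and 0.57 (log2), KRT14 and KRT15 higher, by 0.41 and 1.05, and the other 3 were not called. The sum of 5 endothelial markers was 197 to 227 on arrays labelled ERG, 1348 to 1524 on ETV1 arrays and 1482 to 1660 on control arrays, and that of 4 leukocyte markers was 61.7 to 119 on arrays labelled ERG, 223 to 248 on ETV1 arrays and 209 to 284 on control arrays. For 3 neuroendocrine markers it was 52.2 to 70.5 on arrays labelled ERG, 368 to 461 on ETV1 arrays and 300 to 352 on control arrays. The part of these differences in the results was not tested.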

How the data were processed

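Total RNA from RWPE-1 clones was hybridised to Affymetrix HG-U133 Plus 2.0 arrays, 3 labelled ERG, 4 ETV1 and 3 control, and 1 table of 54675 probe sets was analysed. The deposited values are linear, non-negative signal intensity values per probe set, as the authors processed them, and how background and scaling were handled is not given in the sources used. They were used as deposited, with no further normalization, as log2(intensity + 16), so that fold changes of dim genes are understated.

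Probe sets were named from the platform annotation: 41091 name 1 gene, 1801 name several and were not used. Each gene was read by its brightest probe set over the 10 arrays, and kept if brighter than the median of an array on 3 or more of them. This left 14069 genes, all 37 members among them, and 63 of the members' 70 probe sets. Both steps used the values of every group, so they can favour probe sets and genes bright on the arrays labelled ERG. With the probe set brightest in control arrays, 6248 of 13970 genes were higher on arrays labelled ERG than control. The main choice gave 6755 of 14069. A model of 3 groups was fitted with limma 3.58.1 in R 4.3.3 with no covariate, leaving 7 residual degrees of freedom. Tests were two-sided, p-values were adjusted by Benjamini-Hochberg over every gene tested, and the threshold was 0.05. The same model was run over all probe sets, and was tested on simulated data. Groups came from the sample titles. Upstream windows came from RefSeq tables (GRCh38.p14) for 32 of 37 members.

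The members and lists were chosen with earlier results of these data known. Members described array by array are those with the largest called change per sub-complex in each comparison with control, those whose probe sets were called in opposite directions, and further ones added for context. Of the other replication genes, the 6 largest called changes in ETV1 cells and the 4 largest on arrays labelled ERG are named, and CDC7 and RRM2B were named after their values were seen. The number of arrays limits the precision. Alternatives covered scaling, filter, choice of probe set, pseudocount, limma options, arrays in the fit, a replicate block and leaving out each array. Replicate letters are shared between groups, but the deviations of same-letter arrays correlated at only -0.09 to 0.09 over 9 pairs, so the letters were not taken as pairs.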

Additional observations from a re-analysis of the deposited data

Results flagged for a closer look

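For 16 members the 2 factors' arrays moved to opposite sides of the control arrays, both past the threshold, and the test of the difference between arrays labelled ERG and ETV1 arrays also passed (limma, adjusted p under 0.05). This was so for 9.57% of all tested genes. The last test follows from the other comparisons, which share the model and the control arrays, so it adds no separate support. The difference, on the log2 scale, was 1.03 for MCM5 and 1.70 for MCM7 in the helicase ring, and 1.57 for GINS1 and 1.75 for GINS3 among its activators. It was 1.35 for ORC1 and 1.25 for ORC6 in licensing, and 1.19 for RFC2, 2.13 for RFC3 and 2.00 for RFC4 in the clamp loader. POLE2 differed by 2.09 and PRIM1 by 1.43. The reductase subunits differed by 1.59 (RRM1) and 2.85 (RRM2). FEN1 differed by 1.77, RPA3 by 2.03 and CHAF1A by 1.43. Second probe sets of FEN1 and RRM1, the dimmest of RFC3 and the others of CHAF1A were lower than control on arrays labelled ERG. For these 4 genes the side of the controls thus depends on the probe set, though the second one of RFC3 was higher, at 0.83. The other probe sets of MCM5 and MCM7 were not called there, at -0.31 and -0.30, so they did not share the rise. No member had an ETV1 array past Dixon's limit among the 4; groups of 3 were not tested.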

How the results depend on the processing

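Each count was recomputed under 23 alternatives. In ETV1 cells against control, 19 of the 30 falls kept their call in every alternative that tested the gene, and leaving out 1 array gave 20 to 31 falls, 0 to 1 members higher and 2274 (without control B) to 4158 (without control C) genes called. With the replicate block 27 members fell and 1 was higher. That 1 member, RFC5, was also called higher after quantile normalization, with the 75th percentile filter and with trend and robust variance, as well as without control A, ETV1 D or ERG C, but lower with the mean of probe sets (-0.43) and with the probe set brightest in control arrays (-0.81). GINS2 read 0.018 when only probe sets without _s_, _x_ or _a_ marks were used, since that leaves its dim probe set.

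For arrays labelled ERG against control, 9 of 19 rises and 3 of 6 falls were kept throughout. Quantile normalization gave 11 higher and 13 lower, and median centring 29 and 3, moving the all-gene median to 0.06 and 0.81. The split of all calls was 59.8% higher, 52.4% after quantile normalization, 72.8% after median centring and 73.2% with the 75th percentile filter. The signs of PRIM1 (-0.048) and CHAF1A (-0.16) turned with quantile normalization, those of PCNA (0.13) and LIG1 (0.065) with median centring, those of RRM1 (-0.19), FEN1 (-0.25) and CHAF1A (-0.84) with the mean of probe sets, and that of MCM5 (-0.31) with unmarked probe sets only. CDT1, not called, was lower at -1.52 to -1.40 without 1 of the arrays labelled ERG, and at -1.45 with the probe set brightest in control arrays. The 75th percentile filter, which tests fewer genes, left 7221 called, and 7636 for arrays labelled ERG against ETV1 arrays.

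In that last comparison 21 of 32 rises and 1 of 2 falls were kept throughout. Quantile normalization gave 6 members lower: GINS4 and POLE, as before, CHAF1B (-0.23), CDT1 (-0.92), PCNA (-0.31) and TYMS (-0.31). MCM2 (-0.22) and RPA2 (-0.021) turned sign without passing. Median centring, the 75th percentile filter, the mean of probe sets and unmarked probe sets each left 1 lower. The mean of probe sets turned MCM4 (-0.061) and CHAF1A (-0.066), unmarked probe sets MCM5 (-0.14), and the probe set brightest in control arrays CDT1 (-0.67). CDT1 ranged between -0.75 and 1.21 when 1 array was left out, since another of its probe sets became the brightest. Causes not stated here were not tested.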
